A study of Mus musculus with 6 samples.

Results

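The 10 genes described here encode 3 Notch receptors (Notch1, Notch2 and Notch3), 4 ligands (Dll1, Dll3, Jag1 and Jag2) and 3 basic helix-loop-helix transcription factors of the Hes and Hey families (Hes1, Hey1 and Hes6). They were taken as a named list, by their symbols in the GENCODE M21 annotation, and all 10 were found among the 53390 annotated genes that had a transcript in the files. All 10 also passed the filter on low counts, which left 18177 genes for testing.

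Their RNA was measured by sequencing of stranded, poly(A)-selected libraries from TKO mouse embryonic stem cells (mESCs), a line of male J1 (129S4/SvJae) origin, grown on gelatin without feeders, that is null for all 3 DNA methyltransferase genes, Dnmt1, Dnmt3a and Dnmt3b. The 3 TKO-serum libraries came from cells in a medium with 15% fetal calf serum (FCS) and leukemia inhibitory factor (LIF) at 500 U/ml. The 3 TKO-2i libraries came from cells in N2B27 medium with 1000 U/ml LIF, 1 µM PD0325901 against MEK and 3 µM CHIR99021 against GSK3, and cells of the study were kept in 2i for 14 days. Both groups carry the same genotype, and no library of methylated cells was used here, so the comparison is one of media within cells that lack DNA methylation. Basal medium, serum, LIF dose and inhibitors differed together, and their parts cannot be told apart. The labels number 3 biological replicates per medium without saying whether they were separate cultures, so p-values measure the spread between these libraries, which may be technical.

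In total, 46228700, 44180642 and 43896549 estimated counts were assigned in the TKO-2i libraries (replicates 1, 2 and 3), and 38274042, 51932739 and 44827609 in TKO-serum replicates 1, 2 and 3. Levels within a gene are given as CPM (counts scaled to a normalized library), and 3 counts, taken as the smallest amount that can be told from 0, equal 0.0564 to 0.0778 CPM. Levels of different genes are compared only as TPM, a share of all transcripts that accounts for transcript length. In each group replicate 2 stood somewhat apart from the other libraries. In TKO-2i its chi-square per gene was 45.0 against replicate 1 and 27.4 against replicate 3, while replicates 1 and 3 differed by 7.08. In TKO-serum the values were 16.0 and 11.0, with 4.69 between replicates 1 and 3. Calls of the 10 genes that change without either of these libraries are given both ways.

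Notch signalling passes between touching cells. A Delta or Jagged ligand on the sending cell lets the receptor on the receiving cell be cleaved, first at the surface and then within the membrane by the gamma-secretase complex, and the released intracellular domain joins the DNA-binding protein Rbpj and Mastermind coactivators to switch on target genes such as Hes1 and Hey1. Mouse ES cells carry Notch receptors, and the pathway is best known there for its role when cells leave self-renewal for the neural lineage.

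The cell type label fitted its markers in every library. The 6 pluripotency markers (Pou5f1, Sox2, Nanog, Zfp42, Esrrb and Utf1) summed to 2622, 2597 and 2467 TPM in the TKO-2i libraries and to 3043, 3116 and 3073 TPM in the TKO-serum libraries, led by Pou5f1; 2 of them (Nanog and Esrrb) were called higher in TKO-2i, 3 (Sox2, Zfp42 and Utf1) lower and Pou5f1 was not called. Of the genes that the TKO genotype targets, Dnmt1 had 29.1, 34.6 and 29.3 TPM in TKO-2i and 25.7, 28.6 and 27.9 TPM in TKO-serum. Dnmt3a had 4.30, 5.19 and 4.54 TPM in TKO-2i and 21.3, 23.0 and 22.7 TPM in TKO-serum, and Dnmt3b had 6.71, 9.53 and 8.49 TPM against 18.8, 20.9 and 20.7 TPM. RNA of all 3 was thus present in all 6 libraries, and since the deleted exons are not known here and both groups are null, these values do not check the genotype.

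Of the 10 Notch genes, 9 changed between TKO-2i and TKO-serum at an adjusted p-value under 0.05 (quasi-likelihood test of edgeR, adjusted over all 18177 genes). At this threshold 62.5% of all genes tested were called, so a gene of any kind was more likely than not to be called. By direction, 2 Notch genes were higher in TKO-2i (31.9% of all genes) and 7 were lower (30.6%). Of the 2 higher calls, that of Notch2 was kept in only 3 of 15 other settings. With a fold change of at least 2, 0 were higher (7.72% of all genes) and 4 were lower (15.6%). The CPM of the groups did not overlap for 9 of the 10 (67.5% of all genes). The median log2 fold change of the 10 was -0.46, against 0.01 over all genes, and the median of its absolute value was 0.70, against 0.44. The 10 genes were chosen with earlier results of these data known, so these medians describe this list alone. Since the RNA is from whole cultures, fewer cells expressing a gene and less RNA of it per cell cannot be told apart for any of these genes.

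**Figure D1:**
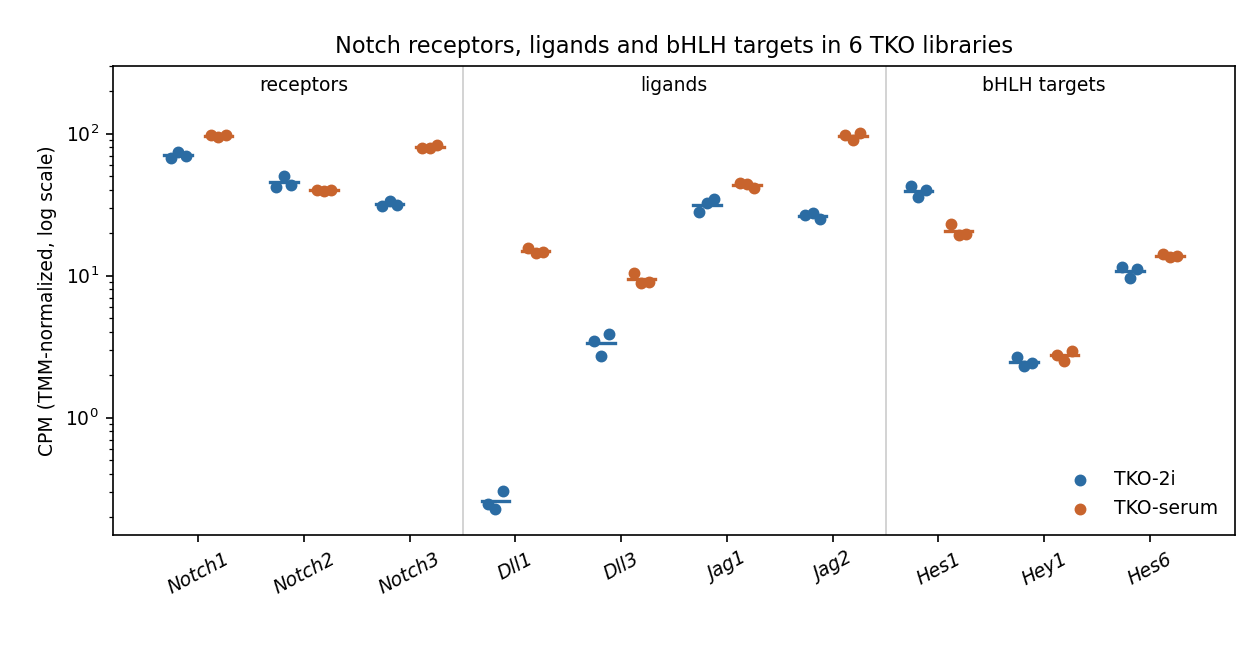
CPM of the 10 Notch genes on a log axis in the 3 TKO-2i (blue) and 3 TKO-serum (orange) libraries. Points are replicates 1, 2 and 3 from left to right within a group and bars are group means; the 4 ligands all lie lower in TKO-2i, with Dll1 at 0.259 against 14.9 CPM, and Hes1 lies higher at 39.6 against 20.7 CPM.

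The 3 receptors moved by different amounts. Notch1 and Notch3 were lower in TKO-2i, and Notch2 was called higher, but that call was fragile. Notch1 (ENSMUSG00000026923; minus strand of chromosome 2 of GRCm38, 26457903 to 26516663), which encodes a receptor with a broad role in embryonic cell fate choices, had 67.6, 74.9 and 70.0 CPM across TKO-2i (replicates 1, 2 and 3) against 98.2, 94.6 and 98.2 across TKO-serum. Every TKO-2i library lay below every TKO-serum library, with the gap between the groups wider than the spread within either. The means were 70.8 ± 3.74 and 97.0 ± 2.08 CPM (SD, n = 3 each), a log2 fold change of -0.45 (standard error 0.06; edgeR quasi-likelihood test, adjusted p = 0.00016).

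Notch3 (ENSMUSG00000038146; minus strand of chromosome 17, 32120820 to 32166852), a receptor best known from vascular smooth muscle, fell further. It had 30.8, 33.7 and 31.7 CPM across TKO-2i against 79.7, 79.8 and 83.1 across TKO-serum, replicates in order. The libraries of each medium lay close together and the groups were far from overlapping. The means of 32.1 ± 1.44 and 80.8 ± 1.94 CPM (SD, n = 3 each) differ by a log2 fold change of -1.33 (standard error 0.05; edgeR quasi-likelihood test, adjusted p = 2.4e-07). The change of Notch3 was larger than that of Notch1, although the difference between both genes was not tested.

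Notch2 (ENSMUSG00000027878; plus strand of chromosome 3, 98013527 to 98150361), the third receptor, had 42.4, 50.5 and 43.4 CPM across TKO-2i against 40.2, 39.7 and 40.1 across TKO-serum, replicates in order. The TKO-serum values were nearly equal, and the TKO-2i values lay above them by little, apart from replicate 2. The means were 45.5 ± 4.42 and 40.02 ± 0.246 CPM (SD, n = 3 each), with a log2 fold change of 0.18 (standard error 0.07; edgeR quasi-likelihood test, adjusted p = 0.048). This call was fragile, since only 3 of 15 other settings kept it, and adjusted p ran from 0.02 to 0.7 over them. Without TKO-2i replicate 2 the log2 fold change was 0.11 (edgeR quasi-likelihood test, adjusted p = 0.054), and without TKO-serum replicate 1, 2 or 3 the adjusted p was 0.1, 0.12 and 0.11. By TPM, Notch2 had 4.56, 6.28 and 4.63 in TKO-2i and 4.70, 5.09 and 4.78 in TKO-serum, so on that scale only TKO-2i replicate 2 was above TKO-serum and the other libraries of TKO-2i were below it.

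All 4 ligands were lower in TKO-2i (30.6% of all genes), 3 of them by more than 2-fold (15.6%). Their median log2 fold change was -1.68. Dll1 (ENSMUSG00000014773; minus strand of chromosome 17, 15367354 to 15376872), a Delta-like ligand that activates receptors on neighbouring cells and acts in somite and neural development, had 11, 10 and 13 estimated counts in TKO-2i replicates 1, 2 and 3 and 600, 772 and 675 in the TKO-serum replicates. As levels these were 0.245, 0.227 and 0.305 CPM across TKO-2i against 15.6, 14.5 and 14.7. Dll1 RNA was thus detected in each TKO-2i library, above the smallest measurable CPM, but at a small part of its level in any TKO-serum library. The means were 0.259 ± 0.0405 and 14.9 ± 0.560 CPM (SD, n = 3 each), and the log2 fold change of -5.83 (standard error 0.12; edgeR quasi-likelihood test, adjusted p = 1.6e-08), a 57.0-fold difference, was the largest of the 10 genes. On the log2(TPM + 1) scale, where the added 1 exceeds the TKO-2i level, the change of Dll1 was reduced to -2.84.

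Jag2 (ENSMUSG00000002799; minus strand of chromosome 12, 112907819 to 112929776), a Jagged ligand with roles in limb and craniofacial development, was the most abundant ligand in TKO-serum by TPM. It had 26.7, 27.8 and 25.0 CPM across TKO-2i against 97.7, 90.1 and 100.4 across TKO-serum, replicates in order. All TKO-2i libraries were low and all TKO-serum libraries high, with no overlap. The means of 26.5 ± 1.42 and 96.1 ± 5.38 CPM (SD, n = 3 each) gave a log2 fold change of -1.86 (standard error 0.06; edgeR quasi-likelihood test, adjusted p = 1.4e-07), or 3.63-fold.

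Dll3 (ENSMUSG00000003436; minus strand of chromosome 7, 28293553 to 28302238), a divergent Delta-like protein that does not activate receptors on other cells and is known for its part in the segmentation of somites, had 3.48, 2.71 and 3.89 CPM across TKO-2i against 10.5, 8.82 and 9.05 across TKO-serum, replicates in order. The lowest TKO-serum library was still well above the highest TKO-2i library. The means of 3.36 ± 0.603 and 9.46 ± 0.927 CPM (SD, n = 3 each) gave a log2 fold change of -1.49 (standard error 0.14; edgeR quasi-likelihood test, adjusted p = 2.7e-05).

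Jag1 (ENSMUSG00000027276; minus strand of chromosome 2, 137081456 to 137116644), a Jagged ligand needed for blood vessel and bile duct development, changed least among the ligands. It had 27.9, 32.4 and 34.8 CPM across TKO-2i against 44.9, 44.1 and 41.8 across TKO-serum, replicates in order. The groups did not overlap, but TKO-2i replicate 3 came nearer to TKO-serum than replicate 1 did. From 43.6 ± 1.62 to 31.7 ± 3.46 CPM (SD, n = 3 each), the log2 fold change was -0.46 (standard error 0.08; edgeR quasi-likelihood test, adjusted p = 0.0011), close to that of Notch1.

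Of the 3 transcription factors, 1 was called higher, 1 lower and 1 was not called. Hes1 (ENSMUSG00000022528; plus strand of chromosome 16, 30064384 to 30067796), a repressor that is a classical target of Notch and can also be driven by other signals, had 43.1, 35.8 and 39.8 CPM across TKO-2i against 23.2, 19.3 and 19.6 across TKO-serum, replicates in order. Every TKO-2i library was above every TKO-serum library. The means were 39.6 ± 3.63 and 20.7 ± 2.16 CPM (SD, n = 3 each), a log2 fold change of 0.94 (standard error 0.09; edgeR quasi-likelihood test, adjusted p = 4e-05), so that Hes1 rose by 1.92-fold, just short of 2-fold, while the 4 ligands fell. It passed a fold of 2 without TKO-2i replicate 2 (log2 fold change 1.01) and without TKO-serum replicate 1 (1.03).

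Hey1 (ENSMUSG00000040289; minus strand of chromosome 3, 8663359 to 8667256), a related repressor and direct Notch target in the heart and vessels, had 2.66, 2.30 and 2.42 CPM across TKO-2i against 2.77, 2.50 and 2.96 across TKO-serum, replicates in order. By CPM the groups overlapped, with TKO-2i replicate 1 above TKO-serum replicate 2, whereas by TPM they did not, with 1.74, 1.66 and 1.59 in TKO-2i and 2.06, 1.86 and 2.16 in TKO-serum. The difference between 2.46 ± 0.183 and 2.74 ± 0.231 CPM (SD, n = 3 each) did not pass the test (log2 fold change -0.16, standard error 0.12; edgeR quasi-likelihood test, adjusted p = 0.3), and at this depth a small change would not be detectable.

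Hes6 (ENSMUSG00000067071; minus strand of chromosome 1, 91411483 to 91414038), a family member that opposes Hes1 and promotes neuronal differentiation, had 11.6, 9.57 and 11.2 CPM across TKO-2i against 14.2, 13.4 and 13.8 across TKO-serum, replicates in order. All TKO-2i libraries were lower, and replicate 2 was the lowest. The means of 10.8 ± 1.08 and 13.8 ± 0.372 CPM (SD, n = 3 each) gave a log2 fold change of -0.35 (standard error 0.09; edgeR quasi-likelihood test, adjusted p = 0.0064), opposite in sign to that of Hes1. With 3 libraries against 3, an exact two-sided permutation test of any 1 of the 10 genes cannot give a p-value below 0.1.

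Compared per length, the order of the 10 genes differed between the media. In TKO-2i, Hes1 was the highest at 56.4 ± 1.12 TPM (SD, n = 3), above every other gene of the 10 in each library, and Notch1 followed at 12.4 ± 1.19 TPM. Hes6 (10.6 ± 0.156 TPM), Jag2 (9.31 ± 2.15 TPM) and Jag1 (7.97 ± 0.976 TPM) came next, and neighbours among these 3 overlapped across libraries. Notch2 and Notch3, at 5.16 ± 0.971 and 4.91 ± 0.808 TPM, also overlapped, and below them lay Dll3 (2.50 ± 0.231 TPM), Hey1 (1.66 ± 0.0753 TPM) and Dll1 (0.0902 ± 0.0105 TPM), each separate from the gene before it.

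In TKO-serum, Jag2 was first by the same TPM scale, at 40.8 ± 2.73 TPM (SD, n = 3), above Hes1 at 32.2 ± 3.03 TPM and Notch1 at 19.1 ± 3.06 TPM. Hes6 had 15.0 ± 0.539 TPM. Notch3 (13.5 ± 0.834 TPM) overlapped with Jag1 (12.0 ± 0.525 TPM), and Dll3 (7.41 ± 0.710 TPM) with Dll1 (6.82 ± 0.731 TPM). Notch2 (4.86 ± 0.207 TPM) and Hey1 (2.03 ± 0.150 TPM) came last, so Dll1 stood above Notch2 in TKO-serum and below every other gene of the 10 in TKO-2i.

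The TPM of a gene is a sum over its annotated transcripts, and short non-coding transcripts weigh heavily in it. The full-length coding transcript of Notch1 (ENSMUST00000028288, 9488 bases) held 99.7% of its estimated counts in TKO-2i and 99.6% in TKO-serum, but 68.5% and 68.0% of the gene's TPM. Much of the rest of Notch1 came from transcripts of 157 and 184 bases (ENSMUST00000138034 and ENSMUST00000148948), which had at most 4.23 and 5.17 estimated counts in any library. The first of them alone held 18.0% of the Notch1 TPM in TKO-2i and 15.7% in TKO-serum. Over protein-coding transcripts alone, an alternative chosen after seeing the data, Notch1 had 8.54 ± 1.499 TPM in TKO-2i and 12.7 ± 0.585 TPM in TKO-serum. On that scale Notch1 no longer stood above Notch3 in TKO-serum, where Notch3 had 13.5 ± 0.834 TPM and both overlapped across libraries, nor did it stand apart from Hes6 (8.52 TPM) in TKO-2i. Hes1 (27.9 ± 1.78 TPM) and Jag2 (26.7 ± 0.789 TPM) overlapped in TKO-serum as well. In TKO-2i, Dll3 (1.88 ± 0.328 TPM) then overlapped with Hey1 (1.62 ± 0.0945 TPM), and Jag2 (6.60 ± 1.04 TPM) with Notch2 (5.06 ± 0.991 TPM). For all 10 genes the ratio of mean TPM between the media had the same direction over protein-coding transcripts as over all transcripts.

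Non-coding transcripts also made up part of the ligand values. The full-length coding transcript of Jag2 (ENSMUST00000075827) had 6.01, 7.78 and 5.81 TPM in TKO-2i replicates 1, 2 and 3 and 24.6, 25.3 and 26.0 TPM in the TKO-serum replicates. The lower level of Jag2 was therefore visible in the coding transcript of every library. A Jag2 transcript without a coding sequence (ENSMUST00000221454) held 12.4% ± 2.61 of the gene's TPM there and 4.29% ± 3.83 in TKO-2i (SD, n = 3 each), from 74.3, 108.0 and 145.3 estimated counts in TKO-serum and 16.4, 12.4 and 0 in TKO-2i. Of Dll1, only the coding transcript ENSMUST00000014917 was seen in TKO-2i, at 0.0807, 0.0884 and 0.101 TPM, against 5.47, 5.43 and 5.40 TPM in TKO-serum. An intron-retaining transcript of Dll1 (ENSMUST00000140784) had 7.59, 22.5 and 15.6 estimated counts in TKO-serum and 0 in each TKO-2i library, where the 10 to 13 counts of the whole gene leave no room to measure its share. Hes1 was carried by its coding transcript ENSMUST00000023171 in both media, with 50.3, 48.5 and 45.5 TPM in TKO-2i and 30.0, 27.0 and 26.8 TPM in TKO-serum, and Notch3 has a single annotated transcript.

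Taken as a sum, the ligand pool was smaller in TKO-2i and differently composed. The TPM of Dll1, Dll3, Dll4, Jag1 and Jag2 summed to 18.2, 23.2 and 18.3 across TKO-2i against 64.7, 68.1 and 69.2 across TKO-serum. Jag2 gave 47.2%, 50.6% and 41.6% of the ligand TPM across TKO-2i and 59.0%, 59.7% and 63.0% across TKO-serum. The share of Jag1 was 37.8%, 37.6% and 45.5% in the TKO-2i replicates and 18.1%, 18.6% and 17.0% in the TKO-serum replicates. Jag2 thus led the pool in each TKO-serum library and in TKO-2i replicates 1 and 2, and Jag1 led in TKO-2i replicate 3. Jag1 made up more of a smaller pool in each TKO-2i library, although its own level was lower. Dll1 gave 0.460% ± 0.0876 of the ligand TPM in TKO-2i and 10.1% ± 0.950 in TKO-serum, and the share of Dll3 overlapped between the media (12.7% ± 1.65 and 11.0% ± 1.45). Over protein-coding transcripts alone the shares of Jag1 and Jag2 in TKO-2i were 47.3% ± 2.58 and 40.4% ± 3.93, so which of the pair led the pool in TKO-2i depended on the library and on the transcripts counted. In TKO-serum Jag2 led on both scales, with 53.8% ± 1.46 over protein-coding transcripts.

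The receptor pool changed less. Notch1, Notch2, Notch3 and Notch4 summed to 28.8, 37.4 and 28.4 TPM in the TKO-2i replicates and to 44.3, 44.2 and 49.4 TPM in the TKO-serum replicates. The TKO-2i libraries were all lower, with replicate 2 nearest to TKO-serum. Notch3 gave 15.6% ± 0.457 of the receptor TPM in TKO-2i and 29.3% ± 2.35 in TKO-serum (SD, n = 3 each), while Notch2 gave 16.3% ± 0.478 and 10.6% ± 0.914. Notch4, which is not among the 10 genes and was called higher (log2 fold change 0.37), gave 28.5% ± 3.07 and 18.5% ± 3.26. By TPM Notch4 overlapped between the media, with 8.50, 11.6 and 7.11 in TKO-2i and 6.56, 9.32 and 9.62 in TKO-serum. The share of Notch1 overlapped between the media, at 39.6% ± 2.98 and 41.6% ± 5.62. Over protein-coding transcripts Notch3 had 19.7% ± 0.470 in TKO-2i and 36.9% ± 0.450 in TKO-serum, so its smaller share in TKO-2i was seen on both scales.

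**Figure D2:**
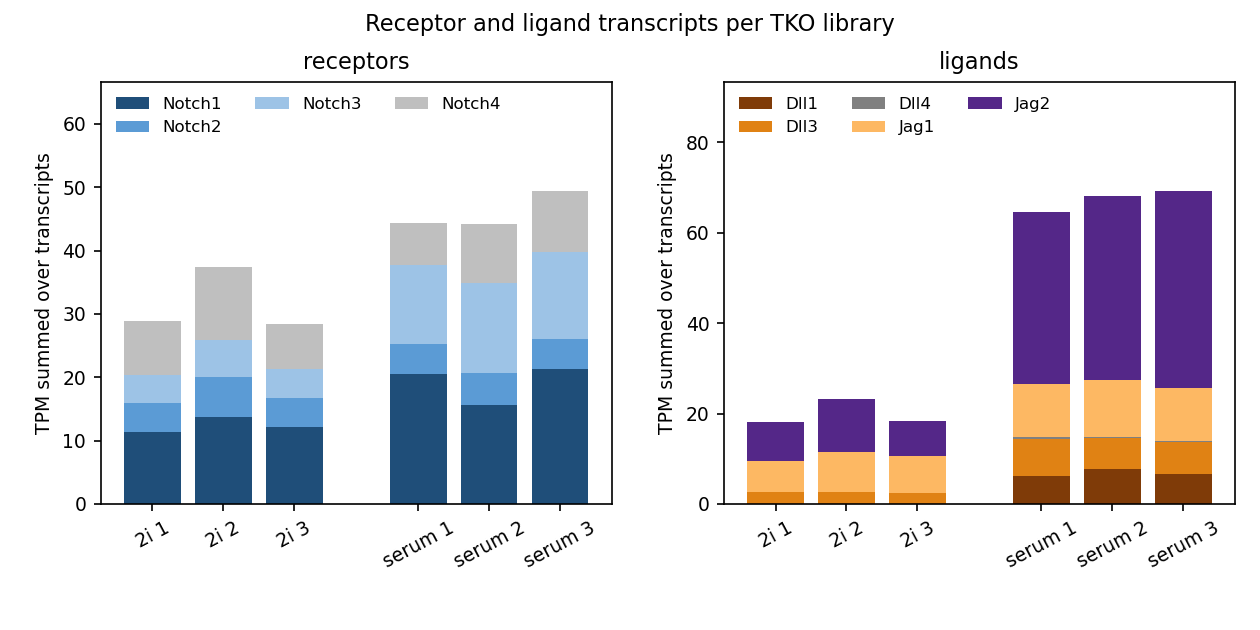
TPM of receptor genes (left) and ligand genes (right), summed over all transcripts, in each TKO-2i and TKO-serum library (2i 1 to serum 3). Colours stack the genes of a family; the ligand sum is between 18.2 and 23.2 TPM in TKO-2i and between 64.7 and 69.2 TPM in TKO-serum, and the receptor sum is between 28.4 and 37.4 and between 44.2 and 49.4 TPM.

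The 10 genes lie on chromosomes 1, 2, 3, 7, 12, 16 and 17. The median log2 fold changes of all genes tested on these chromosomes were 0.00, 0.01, -0.04, -0.01, -0.07, 0.05 and 0.01, in that order. They thus lay between -0.07 and 0.05, against 0.01 over all genes tested. Notch3 and Dll1 are both on chromosome 17 and both fell, as did Notch1 and Jag1 on chromosome 2. On chromosome 3, Notch2 had the fragile higher call, and Hey1, with a log2 fold change of -0.16, was not called. For 8 of the 10 genes the summed estimated counts were whole numbers, within 0.01, in all 6 libraries, as they are when no read is shared with another gene. The exceptions, Notch2 and Dll3, departed from whole numbers by at most 0.138 and 0.39 counts. Genes annotated on the opposite strand overlap Notch1, Notch3 and Dll1, and the most abundant of them, 0610009E02Rik at the end of Notch1, had at most 0.465 TPM in any library, in libraries that keep the strand. On the same strand, the annotation places the microRNA genes Mir6996 within Notch1 and Mir6941 within Jag2, with at most 2.06 and 5.14 TPM, and Gm42819 and Gm42820 within Notch2, with 0 and at most 0.0871 TPM.

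Beyond the 10 genes, a list of 55 other pathway genes was examined, of which 51 could be tested. At an adjusted p-value under 0.05, 22 were higher and 14 lower in TKO-2i, and with a fold of at least 2, 1 was higher and 9 were lower; the background shares given above apply. With limma on log2(TPM + 1) or log2(TPM + 0.1), 11 were higher, and at 2-fold 4 were lower with limma on log2(TPM + 1) and 5 when at least 10 counts were asked of every library. Without TKO-2i replicate 2 the counts 22, 14, 1 and 9 became 24, 18, 1 and 8, and without TKO-serum replicate 2 they became 18, 14, 2 and 8. The median log2 fold change of the list was 0.10. Dlk2, Hes5, Heyl and Helt were not tested.

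Of the pathway genes that were lower by at least 2-fold, Dlk1, a non-canonical inhibitory ligand, had 2.05, 1.84 and 1.97 CPM across TKO-2i against 21.8, 19.8 and 19.2 across TKO-serum (log2 fold change -3.37). Dll4 had 2 counts in each TKO-2i library, under the smallest measurable level, and 27, 28 and 20 counts in TKO-serum. Of the other Hes and Hey genes that could be tested, Hes2, Hes3 and Hey2 were lower, with log2 fold changes of -2.71, -3.55 and -1.39, all from mean TKO-serum levels of at most 1.31 CPM, and Hes3 in TKO-2i replicate 3 was under the smallest measurable level. Hes7, the remaining tested gene of this group, was not called. Nrarp, a feedback inhibitor that Notch induces, is named after its values were seen. It had 6.29, 5.75 and 5.79 CPM across TKO-2i, above the 3.53, 2.91 and 3.24 of TKO-serum, and was called higher (log2 fold change 0.89). Lfng, a glycosyltransferase that modifies receptors, had a log2 fold change of -3.09, Dtx4 of -2.17 and Maml2 of -1.01.

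Rbpj, the DNA-binding partner of the cleaved receptors, had the highest mean TPM of the nuclear complex over the 6 libraries, although Snw1 was above it in each TKO-2i library, and was lower in TKO-2i. Rbpj had 144.1, 159.4 and 140.6 CPM across TKO-2i against 348.4, 381.5 and 361.2 across TKO-serum, without overlap, and a log2 fold change of -1.30 (standard error 0.07; edgeR quasi-likelihood test, adjusted p = 8.7e-07). Of the 10 genes of receptor cleavage, 8 were higher in TKO-2i (31.9% of all genes), 0 were lower (30.6%) and 2 were not called. The median of their log2 fold changes was 0.48. The single pathway gene that was higher by at least 2-fold was among them, Aph1b, with 1.19 ± 0.0501 CPM against 0.424 ± 0.0721 in TKO-serum (SD, n = 3 each). Its estimated counts are fractional, as are those of its paralog Aph1c, so its fold may depend on how reads of both genes were split, which was not tested. The most abundant by TPM, Psenen, was not called (log2 fold change 0.06). Aph1a was called higher, but its mean TPM was 39.4 in TKO-2i and 40.2 in TKO-serum. In the remaining groups the genes with the highest mean TPM over the 6 libraries were Poglut1 (log2 fold change 0.52, called), Nedd4 (-0.65, called), and Mib2 and Ncor1 (0.08 and 0.17, not called). In each TKO-2i library Mib1 (0.45, called) was above Mib2 by TPM. Ncor1 lies on chromosome 11, where the median of all genes tested was 0.26.

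Markers of other cell types that use Notch were counted in the same way, beside the 30.6% of all genes that were lower and the 31.9% that were higher. Left untested by the filter on low counts were 1 neural progenitor, 2 presomitic mesoderm, 1 endothelial, 1 primitive endoderm and 3 fibroblast markers. The 6 neural progenitor markers, of which 4 were lower and 1 higher, summed to 90.3, 91.2 and 87.8 TPM in TKO-2i and 133.9, 137.2 and 134.1 TPM in TKO-serum, mostly Tubb3, and Neurog2 was at 0 in all TKO-2i libraries. The 6 presomitic mesoderm markers, of which 1 was higher and 2 lower, summed to 12.5, 12.2 and 18.0 TPM in TKO-2i and 2.74, 3.37 and 3.64 TPM in TKO-serum, mostly T in TKO-2i. The 5 endothelial markers, 4 of them lower, summed to 2.43, 3.00 and 2.31 TPM in TKO-2i and 15.0, 14.7 and 14.2 TPM in TKO-serum, led by Tek in TKO-2i and by Sox18 in TKO-serum, with Emcn at 0 in every library. The 6 primitive endoderm markers, 4 of them lower, summed to 4.75, 5.72 and 4.60 TPM in TKO-2i and 13.6, 16.4 and 18.2 TPM in TKO-serum, led by Gata4 in TKO-2i and by Dab2 in TKO-serum, and the 6 fibroblast markers, 2 of them lower, to 4.12, 4.79 and 4.55 and to 5.57, 6.22 and 5.77 TPM, led by Thy1. The part of such cells in the values of the Notch genes was not tested.

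Promoter windows of 300 bases, from 250 before to 50 after a start, were held by the RefSeq table (build GRCm38.p6) for 8 of the 10 genes, in 10 windows; Hes1 and Hey1 had none. They were searched on both strands for TGGGAA, the core of the Rbpj motif, CACNAG, the N-box bound by Hes repressors, and CACGTG, an E-box. TGGGAA was found in 0 of the 10 windows (25.6% of all 32851 windows in the table hold it), CACGTG in 0 (7.15%) and CACNAG in 5 (42.5%), those of Notch1, Notch2 and Notch3 and the second windows of Dll1 and Hes6. In Notch1 the matches at bases -3 and -1 from the start overlap. All 10 windows held more CpG dinucleotides than the median window of the table, which has 7, from 11 in Dll3 to 63 in Jag2. The windows of the 4 genes that were lower by at least 2-fold are printed 5′ to 3′ on the gene's strand, which is minus for all 4, with matches to CACNAG in capitals. The first Dll1 window spans the annotated start of the coding transcript ENSMUST00000014917, the only transcript of the gene seen in TKO-2i, and the second lies upstream of all annotated Dll1 transcripts. The Notch3 window holds the annotated start of its transcript, whereas the Dll3 and Jag2 windows lie inside their full-length coding transcripts, downstream of the annotated starts at 28302238 and 112929776.
Notch3, chr17:32166841-32167140: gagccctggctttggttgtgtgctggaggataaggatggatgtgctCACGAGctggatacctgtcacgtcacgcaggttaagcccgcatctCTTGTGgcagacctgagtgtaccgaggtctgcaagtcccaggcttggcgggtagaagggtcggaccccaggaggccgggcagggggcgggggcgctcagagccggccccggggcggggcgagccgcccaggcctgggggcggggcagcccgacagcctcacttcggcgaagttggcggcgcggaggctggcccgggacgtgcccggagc
Dll1 (first window), chr17:15375774-15376073: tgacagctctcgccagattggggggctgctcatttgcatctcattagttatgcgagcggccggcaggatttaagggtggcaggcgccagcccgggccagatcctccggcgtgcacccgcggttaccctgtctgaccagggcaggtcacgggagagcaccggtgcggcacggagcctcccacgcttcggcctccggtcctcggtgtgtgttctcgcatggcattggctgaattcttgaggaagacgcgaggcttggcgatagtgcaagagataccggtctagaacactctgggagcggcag
Dll1 (second window), chr17:15376883-15377182: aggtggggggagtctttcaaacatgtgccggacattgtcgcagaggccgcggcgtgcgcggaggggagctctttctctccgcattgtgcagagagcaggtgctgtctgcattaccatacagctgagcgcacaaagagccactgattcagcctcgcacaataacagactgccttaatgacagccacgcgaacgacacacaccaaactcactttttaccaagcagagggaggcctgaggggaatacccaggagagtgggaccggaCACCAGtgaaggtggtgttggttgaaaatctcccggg
Dll3, chr7:28301736-28302035: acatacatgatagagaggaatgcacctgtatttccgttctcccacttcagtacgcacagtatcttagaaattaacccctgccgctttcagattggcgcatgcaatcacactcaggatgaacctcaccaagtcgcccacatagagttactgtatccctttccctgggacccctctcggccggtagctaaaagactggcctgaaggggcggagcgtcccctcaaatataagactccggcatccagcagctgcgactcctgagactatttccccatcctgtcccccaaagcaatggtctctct
Jag2, chr12:112929446-112929745: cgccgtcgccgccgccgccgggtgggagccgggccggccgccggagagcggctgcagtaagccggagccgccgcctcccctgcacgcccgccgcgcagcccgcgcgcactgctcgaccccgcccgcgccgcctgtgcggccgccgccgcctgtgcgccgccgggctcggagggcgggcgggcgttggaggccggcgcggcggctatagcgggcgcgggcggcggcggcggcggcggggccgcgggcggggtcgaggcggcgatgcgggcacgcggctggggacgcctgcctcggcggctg
In the Notch3 window the matches begin at bases -204 and -159 from the start, the second of them on the other strand, and in the second Dll1 window the match begins at base 14. The Jag2 window is 86.0% G and C, against a median of 52.7%, and 99.97% of windows in the table have fewer CpG. A match is a stretch of letters only, and the absence of one describes these windows alone.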

How the data were processed

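The authors deposited, for each of 6 libraries, an estimated count and a TPM per transcript, in the columns that salmon writes, with mm10 as the build in the labels. The labels and the study's methods do not name salmon, its version or its index, and the methods name the aligner TopHat, so how these values were made is uncertain. The sequencing pool of each library is not known, so pools were not compared. The estimated counts deposited are not normalized, and the deposited TPM is scaled for transcript length within a library. Of 136288 transcripts, 136100 were matched to GENCODE M21; those left out held at most 0.0643% of a library's counts. Here, gene sums of these estimated counts were rounded, filtered (filterByExpr), scaled by TMM and fitted with the medium as the only term in edgeR 4.0.16 (R 4.3.3; glmQLFit, glmQLFTest, Benjamini-Hochberg over 18177 genes). The standard error is the absolute log2 fold change divided by the square root of F. Gene sums of TPM, shares and promoter letters are descriptions without a test. The fit was tested on simulated data in which far fewer genes changed than were called here, so that check does not cover changes this widespread. The members and lists were chosen with earlier results of these data known. Named genes are all 10 members; of the pathway list, those called with a fold of at least 2, the most abundant of each group by mean TPM over the 6 libraries, and the untested by name; leading markers; and the Dnmt genes. Notch4 and other names outside this rule were chosen after their values were seen. Alternatives were DESeq2 1.42.0, its size factors in edgeR, no count filter, limma 3.58.1 on log2(TPM + 1) and log2(TPM + 0.1), length-scaled TPM as counts, a filter of 10 counts in each library, protein-coding genes only, the replicate number as a block, and each library left out. The floor of 3 counts covers counting error alone, because copies made by PCR cannot be seen in these values.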

Additional observations from a re-analysis of the deposited data

How the results depend on the processing

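Across 15 alternatives, 7 members stayed lower and the fitted direction of all 10 was kept, although by TPM Notch2 was above TKO-serum in TKO-2i replicate 2 only; Hey1 was called in none. The count of members called higher, 2 in the reported fit, was 1 with DESeq2 size factors in edgeR, with DESeq2, with no filter on low counts, with at least 10 counts in every sample, with counts from length-scaled TPM, with limma on log2(TPM + 1) and log2(TPM + 0.1), and with protein-coding genes only, since Notch2 lost its call; leaving out each library gave 1 to 2, and 0 to 1 at 2-fold, where Hes1 passed. Pathway genes called higher, 22, became 11 with limma on either TPM scale. At 2-fold, 1 higher became 2 with length-scaled TPM, 0 with limma on log2(TPM + 1) and 2 with log2(TPM + 0.1), and 1 to 2 without single libraries; 9 lower became 5 with at least 10 counts in every sample, which removes genes that fell to low counts, and 4 with limma on log2(TPM + 1), which shrinks low genes. Otherwise the cause was not tested. The replicate numbers were not treated as pairs of samples in the reported fit. The correlations of deviations from group means were 0.24, 0.33 and 0.01 for replicates 1, 2 and 3. Replicates 1 and 2 correlated best with their own number and 3 did not, so whether the numbers pair the samples is not settled. With the replicate block 12539 genes were called, against 11361, with 2 members higher and 7 lower. Of 10 ratios of mean TPM, 3 moved on the CPM scale by more than the spread (Dll1 to -5.85, Hey1 to -0.16, Hes6 to -0.35), and, in an alternative chosen after seeing the data, Dll1 moved to -5.92 over protein-coding transcripts. Depth limits genes near 3 counts, such as Dll4 with 2 in each TKO-2i library.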
